A study of Homo sapiens with 12 samples.

Results

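The genes described here are 32 that are known in Ewing sarcoma as activated by the fusion protein EWS-FLI1. They were listed by symbol on that description, and all 32 were found among the 56609 gene symbols of the deposited tables. The rule itself uses no value measured here, but the list was chosen with earlier results of these data known. Shares of members beside those of all genes are therefore descriptive. RNA was sequenced from the lines A4573 and TC-71 and from derivatives resistant to YK-4-279, a compound designed to keep RNA helicase A from binding EWS-FLI1. The 4 groups of 3 libraries were A4573 parental and TC-71 parental, both given the solvent DMSO, A4573-R, given YK-4-279 at a labelled dose of 650 uM, and TC-71-R, given it at a labelled 400 uM. These doses are printed as labelled, and their unit is in doubt. All 4 groups are cultures of Ewing sarcoma lines, each derivative is a single line, and each received the compound while its parent did not, so resistance and exposure cannot be told apart. The labels do not say whether the 3 libraries of a group came from separate cultures, so p-values here reflect no more than library-to-library spread, possibly technical.

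EWS-FLI1 drives most Ewing sarcomas, tumours of bone or soft tissue, and joins the activating part of EWSR1 to the ETS-type DNA-binding domain of FLI1. The fusion binds repeats of the bases GGAA, at which it can open chromatin and act as an activator, and also binds single ETS sites. Its activated genes include transcription factors of neural development, kinases, enzymes and membrane proteins, some of which are used to recognise the tumour or are known to be needed for its growth.

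Reference promoters were read for the members from RefSeq on GRCh38.p14, in windows of 250 bases before to 50 bases after each listed start. They matched 29 of the 32 members in 57 windows, and VRK1, PPP1R1A and MYOM2 had no window. GGAA was found on either strand in 91.2% of the members' windows and in 95.5% of all 35116 windows, with a median of 3 matches in both. GGAAGGAA, which contains GGAA at both ends, was found on either strand in 5 windows of 4 members, or 8.77% of the members' windows and 3.67% of all windows. A run of 3 GGAA was found in none of the members' windows and in 0.0854% of all. The ETS-type site CCGGAAGT, which also contains GGAA, was found in 1 member window, of JAK1, or 1.75%, and in 4.14% of all. The sequences below show the bases before the start for LIPI and POU3F1, which moved in opposite directions in the 2 lines, and for PADI2, which was near 0 in one line. They run 5′ to 3′ on the strand of the gene, and capitals mark GGAA or its reverse complement TTCC.
LIPI, chr21:14210956-14211205, minus strand: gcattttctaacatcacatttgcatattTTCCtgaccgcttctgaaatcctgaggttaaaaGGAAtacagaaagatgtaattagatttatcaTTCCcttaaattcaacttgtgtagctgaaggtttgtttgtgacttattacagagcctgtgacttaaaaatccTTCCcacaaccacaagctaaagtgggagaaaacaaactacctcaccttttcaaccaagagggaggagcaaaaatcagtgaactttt
POU3F1, chr1:38046795-38047043, minus strand: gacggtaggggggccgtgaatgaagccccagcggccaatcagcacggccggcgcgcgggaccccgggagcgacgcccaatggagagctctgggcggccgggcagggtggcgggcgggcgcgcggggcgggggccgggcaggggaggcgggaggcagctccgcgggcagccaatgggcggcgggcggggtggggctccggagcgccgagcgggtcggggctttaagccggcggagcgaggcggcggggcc
PADI2, chr1:17119452-17119701, minus strand: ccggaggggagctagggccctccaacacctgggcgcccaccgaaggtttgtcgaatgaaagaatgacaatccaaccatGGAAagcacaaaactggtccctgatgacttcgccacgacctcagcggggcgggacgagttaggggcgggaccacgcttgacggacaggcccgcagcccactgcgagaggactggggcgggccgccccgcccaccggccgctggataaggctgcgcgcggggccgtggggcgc
The LIPI stretch held 4 matches to GGAA, none adjacent to another, the POU3F1 stretch held 0 in 249 bases, and the PADI2 stretch held 1. These matches describe the reference sequence, and binding was not measured. Repeats farther from the starts were not searched.

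Named genes held 44.0 to 62.1 M reads per library (M, 1000000 reads), and libraries of a group correlated at 0.9974 or more on the log2 scale over the tested genes. The unit, CPM, is counts per 1000000 reads, on library sizes that the authors scaled. The tests ran over the 14335 genes that reached 1 CPM in 3 or more libraries, among them 31 of the 32 members, and FATE1 fell below this limit. A gene is called changed where limma gave a Benjamini-Hochberg adjusted p under 0.05, and log2 fold changes are differences of log2(CPM + 1), which understate changes of low genes. Of the 6 Ewing sarcoma markers, which include the members NR0B1 and NKX2-2, 5 had a mean of at least 1 CPM in every group. Their summed level ranged over 443 to 458 CPM for A4573 parental, 361 to 369.7 for A4573-R, 535 to 544 for TC-71 parental and 679 to 700.4 for TC-71-R. The remaining marker, CD99, was under 0.1 CPM in all 4 groups, and GENCODE lists it at 2 places. Whether reads matching both places were counted is not given in the sources consulted. The value therefore does not show that CD99 was absent. All 3 myogenic markers were under 0.1 CPM in every group, and the 5 blood cell markers summed to at most 1.2 CPM. The 5 fibroblast markers summed to 435 to 452 CPM for A4573 parental, 326 to 333 for A4573-R, 58.6 to 60.5 for TC-71 parental and 111 to 113 for TC-71-R. The 5 epithelial markers reached 21.4 to 22.4 CPM in parental TC-71 and 4.65 to 5.42 in TC-71-R, against at most 1.81 in the A4573 groups. The part of these markers in the results was not tested. In such bulk samples fewer cells expressing a gene and less RNA per cell cannot be told apart.

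The activated genes moved in both directions in each resistant line. In A4573-R 24 of the 31 tested members changed, 9 higher and 15 lower, or 77.4%, beside 72.5% of all tested genes (38.3% higher and 34.1% lower). Members past 2-fold were POU3F1 and LIPI, both lower, 2 of 31 or 6.45% beside 5.72% of all genes. In TC-71-R 26 members changed, 16 higher and 10 lower, or 83.9%, beside 78.5% of all genes (38.8% higher and 39.6% lower). Members past 2-fold there were PADI2, VRK1 and LIPI, higher, and ABHD6 and PPP1R1A, lower, 5 of 31 or 16.1% beside 10.3%. The shares of changed members, taken without direction, were thus close to those of all genes. By direction, 15 of 31 members fell in A4573-R, where 34.1% of all genes did. In TC-71-R 16 of 31 rose, where 38.8% of all genes did, and no test compared these counts. The median change of the tested members was -0.10 in A4573-R, where that of all genes was 0.02, and 0.12 in TC-71-R, where that of all genes was -0.0033. Taken without sign, the median was 0.33 in A4573-R beside 0.25 for all genes and 0.49 in TC-71-R beside 0.33. Libraries of the parental and resistant groups did not overlap for 26 members in each line, 83.9%, beside 74.6% of all genes in A4573 and 81.1% in TC-71. Those in A4573 included PADI2, which had only 2 to 5 reads per library there. Its ratio of A4573-R to A4573 parental over pooled reads was 1.80 (95% interval 0.592 to 6.01, counting error only).

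**Figure D1:**
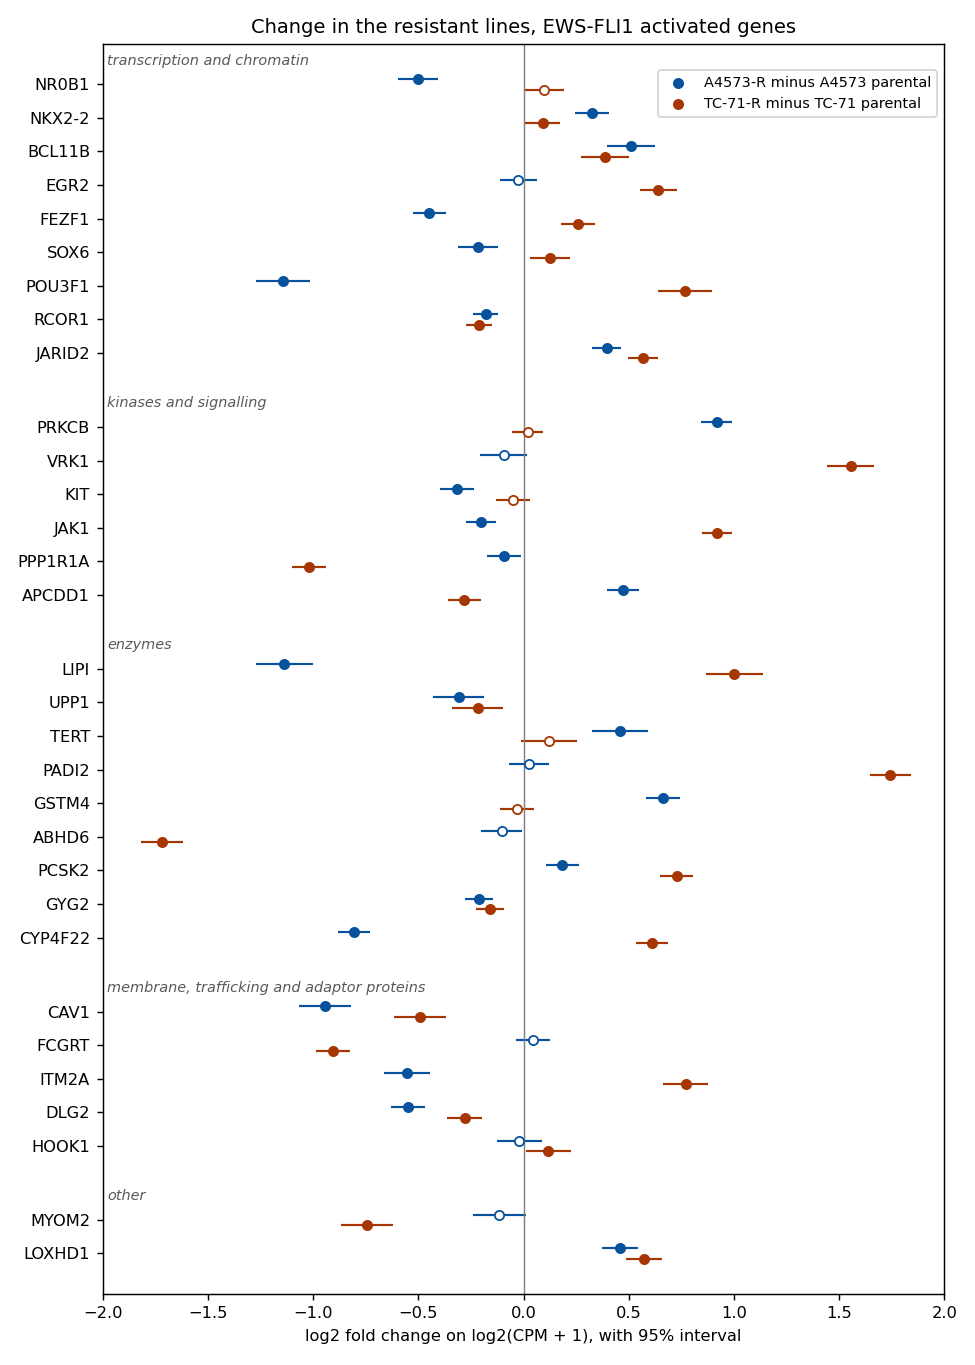
Log2 fold change of each of the 31 tested members (x axis, log2(CPM + 1) scale) in A4573-R and in TC-71-R against its own parental line, 3 libraries per group, with 95% intervals from limma; open points did not pass an adjusted p of 0.05. The members lie on both sides of 0 in each role and in both lines, from -1.72 for ABHD6 to 1.74 for PADI2, both in TC-71-R.

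The change differed between the lines, by the test of the difference itself, for 25 of 31 members, 80.6% beside 78.1% of all genes. It was more positive in TC-71-R for 16, where 37.9% of all genes were, and more negative for 9, where 40.2% were. The difference exceeded 2-fold for 8 members, 25.8% beside 16.5%. Called in both lines were 19 of the 31 tested members, and 57.5% of all 14335 tested genes. Opposite directions were taken by 8 of the 31 members, beside 26.2% of the 14335 genes. FEZF1, SOX6, POU3F1, JAK1, LIPI, CYP4F22 and ITM2A fell in A4573-R and rose in TC-71-R, and APCDD1 did the reverse. Both changes had the same direction for 11 of the 31 members, beside 31.3% of the 14335 genes. NKX2-2, BCL11B, JARID2, PCSK2 and LOXHD1 rose in both lines, and RCOR1, PPP1R1A, UPP1, GYG2, CAV1 and DLG2 fell in both.

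**Figure D2:**
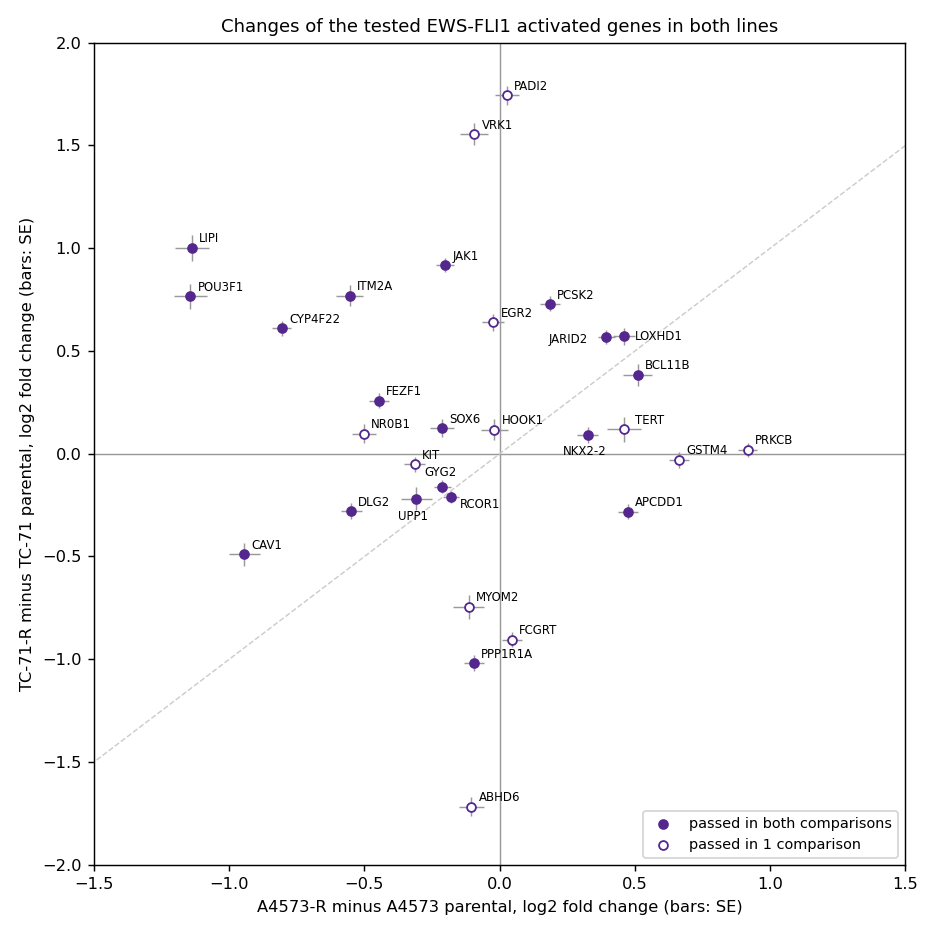
Change in A4573-R (x axis) against change in TC-71-R (y axis) of the 31 tested members, as log2 fold changes with SE bars; filled points passed in both comparisons, and the dashed line marks equal change. POU3F1 and LIPI sit at the upper left, at -1.14 on the x axis, while CAV1 lies farthest left, at -0.94, among members that fell in both lines.

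Of the 9 transcription and chromatin genes, 3 rose, 5 fell and 1 did not pass in A4573-R, and 7 rose, 1 fell and 1 did not pass in TC-71-R. Both changed shares were 88.9%, beside 72.5% and 78.5% of all genes, and no test compared the counts. The rises of NKX2-2 and SOX6 in TC-71-R lost their call under alternatives given below. NR0B1, which encodes an orphan nuclear receptor that lacks the usual DNA-binding domain, lies at chrX:30304206-30309598. It measured 86.6, 84.9 and 88.4 CPM in A4573 parental, 58.5, 66.9 and 57.7 in A4573-R, 186, 188 and 186 in parental TC-71 and 199, 199 and 202 in TC-71-R. All A4573-R libraries lay below their parents and all TC-71-R libraries slightly above theirs. The fall in A4573-R was -0.50 (SE 0.0449, adjusted p = 7.6e-08). The value in TC-71-R was 0.10 (95% interval 0.0022 to 0.19, adjusted p = 0.058). It passed with edgeR (0.13, adjusted p = 0.018) and with DESeq2 (adjusted p = 0.0088). Median-of-ratios scaling (0.13, adjusted p = 0.018) and the fit of the TC-71 groups alone (adjusted p = 0.0039) passed too. So did fits without A4573-R replicate 2 (adjusted p = 0.0036) or replicate 3 (adjusted p = 0.038), libraries that enter through the shared spread.

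NKX2-2 (chr20:21511010-21514026) encodes a homeodomain factor of neural tube and pancreas development that is used as a diagnostic marker of Ewing sarcoma. Its libraries measured 28.4, 28.0 and 29 CPM in A4573 parental, 36.4, 36.3 and 35.2 in A4573-R, 17.8, 19.5 and 19.2 in parental TC-71 and 20.1 in each of the 3 TC-71-R libraries. The A4573-R libraries were the highest of the 12, and the groups of a line did not overlap in either line. The rise was 0.33 in A4573-R (SE 0.0385, adjusted p = 1.8e-06) and 0.09 in TC-71-R (adjusted p = 0.042). The call in TC-71-R was lost when CPM were taken over the reads of named genes (0.02, adjusted p = 0.62) and without TC-71 parental replicate 1 (0.05, adjusted p = 0.23), and in the fit of the TC-71 groups alone (adjusted p = 0.078). It was also lost without any 1 of the TC-71-R libraries (adjusted p = 0.067 to 0.079) or the A4573 parental libraries (adjusted p = 0.051 to 0.055). NKX2-2 shares 638 exon bases, 30.5% of its own, with the antisense gene NKX2-2-AS1, and FEZF1 shares 611, or 23.4%, with FEZF1-AS1. Use of strand in the counting is not given in the sources consulted, so reads of these pairs may not be separated.

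POU3F1 (chr1:38044611-38046794), a POU-domain factor of Schwann cell development whose promoter window is printed above, moved most in this group. It measured 9.35, 9.0 and 9.38 CPM in A4573 parental and 3.80, 3.07 and 4.10 in A4573-R, against 99.5, 103 and 97.5 in parental TC-71 and 172, 171 and 169 in TC-71-R. The gap between the lines, already wide in the parents, was wider between the derivatives. The change was -1.14 in A4573-R (SE 0.0606, adjusted p = 1.9e-10) and 0.77 in TC-71-R (SE 0.0606, adjusted p = 1.2e-08), a difference of 1.91 (SE 0.0857, adjusted p = 2.1e-11). EGR2, a zinc finger factor of myelination and of the early response to growth signals, was 2.45 ± 0.124 CPM (SD, n = 3) in A4573 parental and 2.4 ± 0.12 in A4573-R (-0.02, adjusted p = 0.62, and -0.13 with adjusted p = 0.015 after quantile normalization), and rose from 165 ± 2.39 to 257 ± 9.54 in TC-71-R (0.64, adjusted p = 1.1e-09). FEZF1, a zinc finger factor of the forebrain, fell from 39.0 to 28.4 CPM in A4573-R (-0.45) and rose from 35.4 to 42.5 in TC-71-R (0.26).

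SOX6, an HMG-box factor of cartilage and neural development, fell from 103 to 89.0 CPM in A4573-R (-0.21, adjusted p = 0.00048) and rose from 124 to 135 in TC-71-R (0.12, adjusted p = 0.019). Its rise did not pass over named-gene reads (0.05, adjusted p = 0.33), nor without TC-71 parental replicate 2 (adjusted p = 0.062), TC-71 parental replicate 3 (adjusted p = 0.066) or TC-71-R replicate 3 (adjusted p = 0.066). BCL11B, a zinc finger factor of T cells and neurons, rose in both lines, from 77.3 to 111 CPM in A4573-R (0.51) and from 77.1 to 101 in TC-71-R (0.39). JARID2, which recruits the Polycomb repressive complex that methylates histone H3, likewise rose from 34.3 to 45.4 CPM (0.39) and from 49.0 to 73.1 (0.57). RCOR1, a scaffold of the CoREST repressor complex, fell slightly in both, from 121 to 106 CPM (-0.18) and from 429 to 369.8 (-0.21). The difference for RCOR1 did not pass (-0.03, 95% interval -0.12 to 0.05), but did over named-gene reads (-0.10, adjusted p = 0.027) and after quantile normalization (-0.20, adjusted p = 0.00021), and its sign was positive with edgeR (0.03, adjusted p = 0.54). Nor did the difference pass for BCL11B (-0.13, 95% interval -0.29 to 0.04).

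Of the 6 kinase and signalling genes, 2 rose, 3 fell and 1 did not pass in A4573-R, and 2 rose, 2 fell and 2 did not pass in TC-71-R. Their changed shares were 83.3% and 66.7%, beside 72.5% and 78.5% of all genes. The test of the difference passed for 6 of 6, where 78.1% of all genes passed it. PRKCB (chr16:23835946-24220611), which encodes protein kinase C beta, measured 94.2, 95 and 98.5 CPM in A4573 parental and 188, 175 and 183 in A4573-R. In TC-71 it was higher in both groups, at 443, 448 and 448 CPM in the parent and 443, 450.3 and 464 in TC-71-R. Every A4573-R library lay above its parents, while the TC-71 groups overlapped. The rise in A4573-R was 0.92 (SE 0.0346, adjusted p = 4e-12), and the value in TC-71-R was 0.02 (95% interval -0.05 to 0.09, adjusted p = 0.62), which quantile normalization turned to -0.12 (adjusted p = 0.0019).

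VRK1 (chr14:96797304-96931722), a nuclear kinase of histones and chromatin proteins, showed the opposite split. It measured 39.4, 41.5 and 40.6 CPM in A4573 parental, 36.6, 36.4 and 40.9 in A4573-R, 30.1, 32.8 and 30.8 in parental TC-71 and 95.1, 87.7 and 98.5 in TC-71-R. The A4573 groups overlapped, and the TC-71-R libraries stood above the other 9. The rise in TC-71-R was 1.56 (SE 0.0519, adjusted p = 4.8e-13), a change that 3.21% of tested genes exceeded in size, and the value in A4573-R was -0.09 (adjusted p = 0.12), which passed with edgeR (-0.12, adjusted p = 0.047) and without A4573-R replicate 3 (-0.15, adjusted p = 0.015). VRK1 shares 190 exon bases with LINC00618. JAK1, the tyrosine kinase of interferon and cytokine receptors, rose from 660.1 ± 5.62 to 1248 ± 1.59 CPM (SD, n = 3) in TC-71-R (0.92, adjusted p = 1.3e-12; 0.53 after quantile normalization) and fell from 352 ± 2.51 to 306 ± 10.4 in A4573-R (-0.20, adjusted p = 6.1e-05).

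PPP1R1A (chr12:54575387-54588659), an inhibitor subunit of protein phosphatase 1, measured 75.9, 79.9 and 77.7 CPM in A4573 parental, 70.6, 73.4 and 74.5 in A4573-R, 52.1, 52.0 and 56.5 in parental TC-71 and 25.9, 25.6 and 26.1 in TC-71-R. Levels were lower in both derivatives, with no overlap, and the TC-71-R libraries were the lowest. The fall was -1.02 in TC-71-R (SE 0.0379, adjusted p = 1.7e-12) and -0.09 in A4573-R (adjusted p = 0.035). The smaller of the falls did not pass after quantile normalization (-0.07, adjusted p = 0.13), with no filter on low values (adjusted p = 0.058), or without A4573 parental replicate 2 (-0.08, adjusted p = 0.14), A4573 parental replicate 3 (adjusted p = 0.07) or A4573-R replicate 1 (-0.07, adjusted p = 0.13). PPP1R1A shares 443 exon bases, 11.1% of its own, with PDE1B on the opposite strand. KIT, the receptor of stem cell factor, fell from 72.2 to 57.8 CPM in A4573-R (-0.31), and was 6.68 CPM in parental TC-71 and 6.41 in TC-71-R (-0.05, adjusted p = 0.22), a value that passed over named-gene reads (-0.12, adjusted p = 0.013). APCDD1, a membrane inhibitor of WNT signalling, rose from 389.5 to 541 CPM in A4573-R (0.47) and fell from 274 to 226 in TC-71-R (-0.28).

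**Figure D3:**
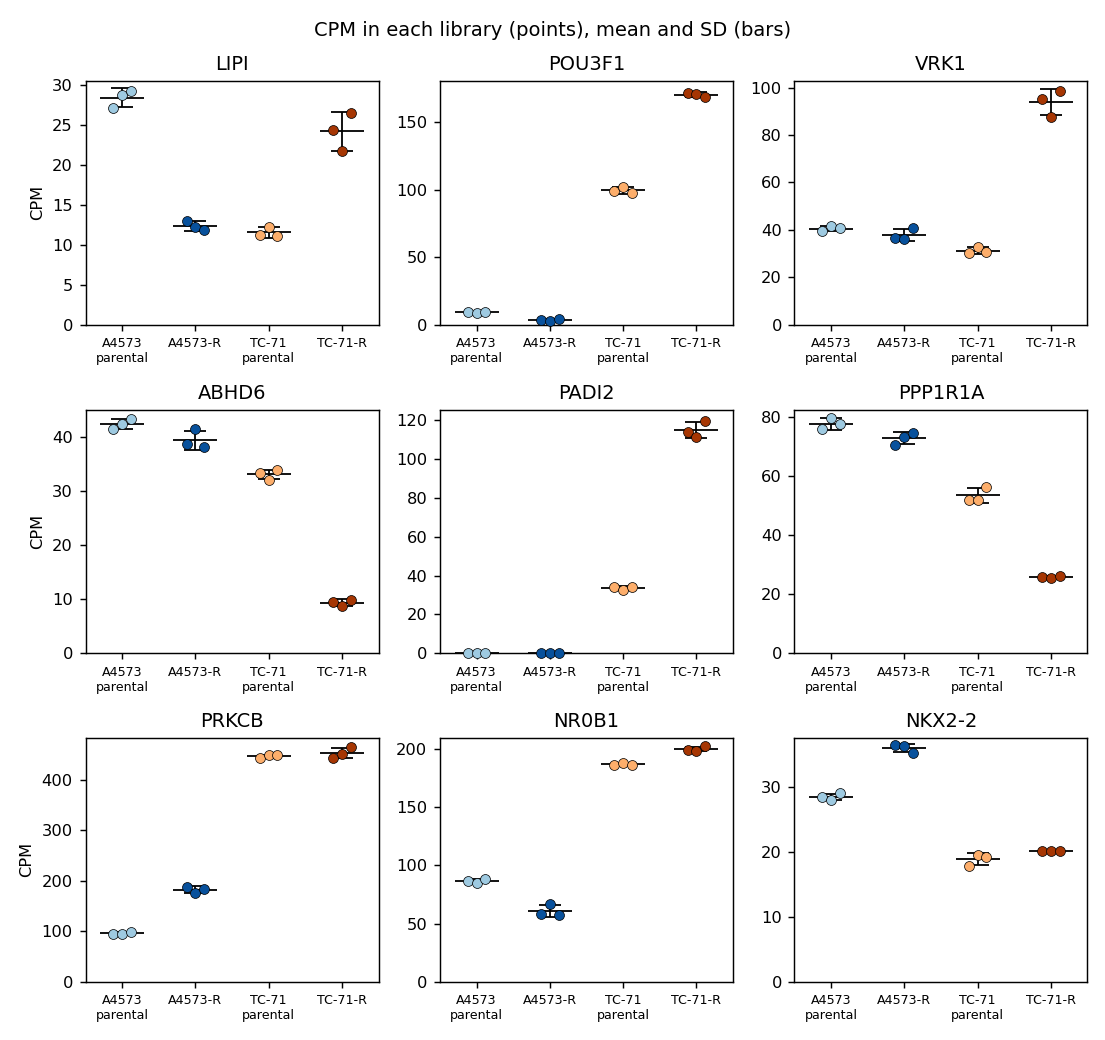
CPM (y axis, linear from 0) in each of the 12 libraries for 9 members, with the mean and SD of each group of 3. LIPI is low in A4573-R and TC-71 parental and high in the other groups, VRK1 stands apart in TC-71-R, and PADI2 lies near 0 in both A4573 groups.

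Among the 9 enzymes, 3 rose, 4 fell and 2 did not pass in A4573-R, and 4 rose, 3 fell and 2 did not pass in TC-71-R. Both changed shares were 77.8%, beside 72.5% and 78.5% of all genes. LIPI (chr21:14108813-14210891), a lipase that acts on phosphatidic acid, had the largest difference between the lines of the 31 members on the log2(CPM + 1) scale. With edgeR that of UPP1 was larger in size (-3.21). LIPI measured 27.1, 28.8 and 29.3 CPM in A4573 parental, 13.0, 12.3 and 11.8 in A4573-R, 11.3, 12.3 and 11.1 in parental TC-71 and 24.4, 21.7 and 26.5 in TC-71-R. Its A4573-R and TC-71 parental libraries thus lay in nearly the same range, below the other groups. The LIPI change was -1.14 in A4573-R (SE 0.0635, adjusted p = 3.4e-10) and 1.00 in TC-71-R (SE 0.0635, adjusted p = 8.5e-10). The difference of 2.14 (SE 0.0897, adjusted p = 1e-11) was exceeded in size by 2.36% of tested genes.

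PADI2 (chr1:17066761-17119435), which converts arginine in proteins to citrulline, was near 0 in A4573 and rose further in TC-71-R. It had 2 reads in each A4573 parental library and 2 to 5 in A4573-R, and measured 34.0, 32.6 and 34.1 CPM in parental TC-71 and 114, 111 and 119 in TC-71-R. The rise in TC-71-R was 1.74 (SE 0.0453, adjusted p = 3.3e-14), the largest of the tested members there. Its difference from A4573-R was 1.72 (adjusted p = 2.9e-12) on the log2(CPM + 1) scale but did not pass with edgeR (1.02, adjusted p = 0.24) or DESeq2 (0.97, adjusted p = 0.24), which compare ratios of the few A4573 reads. ABHD6 (chr3:58237506-58295693), a lipase that breaks down monoacylglycerols including an endocannabinoid, went the other way. It measured 41.5, 42.5 and 43.4 CPM in A4573 parental, 38.7, 41.5 and 38.1 in A4573-R, 33.3, 32.1 and 33.9 in parental TC-71 and 9.57, 8.72 and 9.87 in TC-71-R. The TC-71-R libraries were far below the other 9, with a change of -1.72 (SE 0.0463, adjusted p = 4.8e-14). The value in A4573-R was -0.10 (adjusted p = 0.054), with adjusted p between 0.016 and 0.046 in the 8 alternatives under which it passed, among them edgeR, DESeq2 and leaving out A4573-R replicate 2, TC-71-R replicate 2 or TC-71-R replicate 3.

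CYP4F22, a fatty acid hydroxylase of skin ceramide synthesis, fell from 25.4 to 14.1 CPM in A4573-R (-0.81) and rose from 37.0 to 57.1 in TC-71-R (0.61). PCSK2, a convertase of prohormones, rose from 61.1 to 69.6 CPM (0.18) and from 54.1 to 90.2 (0.73). GYG2, a glycogenin that primes glycogen chains, fell from 89.3 to 76.9 CPM (-0.21) and from 56.7 to 50.7 (-0.16). GSTM4, a glutathione transferase, rose from 41.8 to 66.7 CPM in A4573-R (0.66, adjusted p = 4.8e-10) and was 27.9 and 27.3 CPM in TC-71 parental and TC-71-R (-0.03, adjusted p = 0.49), which passed over named-gene reads (-0.10, adjusted p = 0.016). GSTM4 shares 375 exon bases with GSTM2 and belongs to a family of near-identical genes, so its counts are uncertain. TERT, the catalytic part of telomerase, rose from 1.73 to 2.75 CPM in A4573-R (0.46, adjusted p = 7.7e-06) and was 13.5 and 14.7 CPM in TC-71 parental and TC-71-R (0.12, adjusted p = 0.092), which passed with edgeR (0.17, adjusted p = 0.031), with DESeq2 (adjusted p = 0.042) and without TC-71-R replicate 3 (0.16, adjusted p = 0.042).

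UPP1, a uridine phosphorylase, was low throughout and lowest in TC-71-R. It had 258 to 263 reads per library in A4573 parental, 169 to 202 in A4573-R, 13 to 19 in parental TC-71 and 0 to 2 in TC-71-R, 3 reads in all 3. The ratio of TC-71-R to TC-71 parental over pooled reads was 0.0696 (95% interval 0.0138 to 0.216, counting error only). On the log2(CPM + 1) scale the falls were -0.31 in A4573-R (adjusted p = 0.00017) and -0.22 in TC-71-R (adjusted p = 0.0025), the latter -3.66 with edgeR (adjusted p = 1.1e-05). The difference between them was 0.09 (adjusted p = 0.32) on the main scale and turned to -3.21 with edgeR (adjusted p = 8.7e-05).

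Of the 5 membrane, trafficking and adaptor genes, 0 rose, 3 fell and 2 did not pass in A4573-R. There 38.3% of all genes rose and 34.1% fell. In TC-71-R 2 of the 5 rose and 3 fell. The changed shares were 60% and 100%, beside 72.5% and 78.5% of all genes, and no test compared the counts. CAV1 (chr7:116524785-116561184), the main coat protein of caveolae, fell in both lines. It measured 602, 632 and 635 CPM in A4573 parental and 329.7, 329 and 311 in A4573-R, and 427, 421 and 434 in parental TC-71 and 314, 269.8 and 331 in TC-71-R, with no overlap in either line. The change was -0.94 in A4573-R (SE 0.0578, adjusted p = 9.8e-10) and -0.49 in TC-71-R (SE 0.0578, adjusted p = 1.3e-06), and the difference of 0.45 passed (adjusted p = 0.00011). ITM2A, a membrane protein of cartilage and muscle differentiation, fell from 237 to 161 CPM in A4573-R (-0.55) and rose from 118 ± 4.10 to 203 ± 18.4 (SD, n = 3) in TC-71-R (0.77). FCGRT, the heavy chain of the neonatal Fc receptor, was 133 and 137 CPM in A4573 parental and A4573-R (0.05, adjusted p = 0.29) and fell from 258 ± 13.6 to 137 ± 2.14 in TC-71-R (-0.90, adjusted p = 6.3e-12). DLG2, a synaptic scaffold protein, fell from 42.8 to 29 CPM (-0.55) and from 172 to 142 (-0.28). HOOK1, an adaptor between microtubules and endocytic cargo, was 44.8 and 44.2 CPM in the A4573 groups and 130.1 and 141 in the TC-71 groups, which overlapped. Its value of 0.12 in TC-71-R (adjusted p = 0.043) lost the call over named-gene reads (0.05, adjusted p = 0.43), after quantile normalization (0.09, adjusted p = 0.076), with no filter (adjusted p = 0.11), without A4573 parental replicate 2 (adjusted p = 0.055) and without TC-71 parental replicate 2 or 3 or TC-71-R replicate 1 or 3 (0.09 to 0.11, adjusted p = 0.11 to 0.14).

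Of the remaining 3 members, LOXHD1, a protein of inner ear hair cells, rose from 36.2 to 50.1 CPM in A4573-R (0.46) and from 31.9 to 47.9 in TC-71-R (0.57). MYOM2, a protein of the muscle M band, was 7.25 and 6.63 CPM in the A4573 groups (-0.11, adjusted p = 0.089) and fell from 3.84 to 1.88 in TC-71-R (-0.74, adjusted p = 1e-08). Its value in A4573-R passed after quantile normalization (-0.19, adjusted p = 0.0068) and without A4573-R replicate 1 (-0.16, adjusted p = 0.028). FATE1, a testis-restricted antigen that is also found in Ewing sarcoma, was too low to be tested, with 6 to 18 reads per library in A4573 parental, 26 to 41 in A4573-R, 8 to 10 in parental TC-71 and 0 to 4 in TC-71-R. Its pooled-read ratio to the parent was 3.47 in A4573-R (95% interval 2.31 to 5.33) and 0.237 in TC-71-R (95% interval 0.0800 to 0.586), counting error only.

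Set side by side, the parental lines differed in nearly all members. TC-71 parental was higher than A4573 parental for 14 tested members, lower for 16 and not different by the test for 1, so that 96.8% differed, beside 89.9% of all genes (45.9% higher and 44.1% lower). Past 2-fold were 12 members, 38.7% beside 30.6%, and the libraries did not overlap for 30, 96.8% beside 92.5%. The member that did not pass was BCL11B, at 77.3 and 77.1 CPM (-0.00069, 95% interval -0.11 to 0.11, adjusted p = 0.99), which became 0.14 after quantile normalization (adjusted p = 0.024). On the log2(CPM + 1) scale the widest gaps toward TC-71 were EGR2 (5.59, adjusted p = 5.9e-21), PADI2 (5.08, adjusted p = 2.4e-20), POU3F1 (3.30, adjusted p = 6.8e-17), TERT (2.41) and PRKCB (2.21). In pooled reads PADI2 was 1367 times higher in TC-71 parental than in A4573 parental (95% interval 628 to 3726, counting error only). The widest gaps toward A4573 on the log2(CPM + 1) scale were KIT (-3.25, adjusted p = 3.5e-19), UPP1 (-1.83, adjusted p = 4.2e-14), LIPI (-1.23, adjusted p = 2.5e-11) and ITM2A (-1.0, adjusted p = 2.1e-11). UPP1 was -4.18 with edgeR (adjusted p = 4.4e-13), and 17.9 times higher in A4573 parental in pooled reads (95% interval 13.3 to 24.6, counting error only). FEZF1 differed by -0.14 (adjusted p = 0.0026), a call lost over named-gene reads (-0.07, adjusted p = 0.13) and after quantile normalization (-0.08, adjusted p = 0.053).

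**Figure D4:**
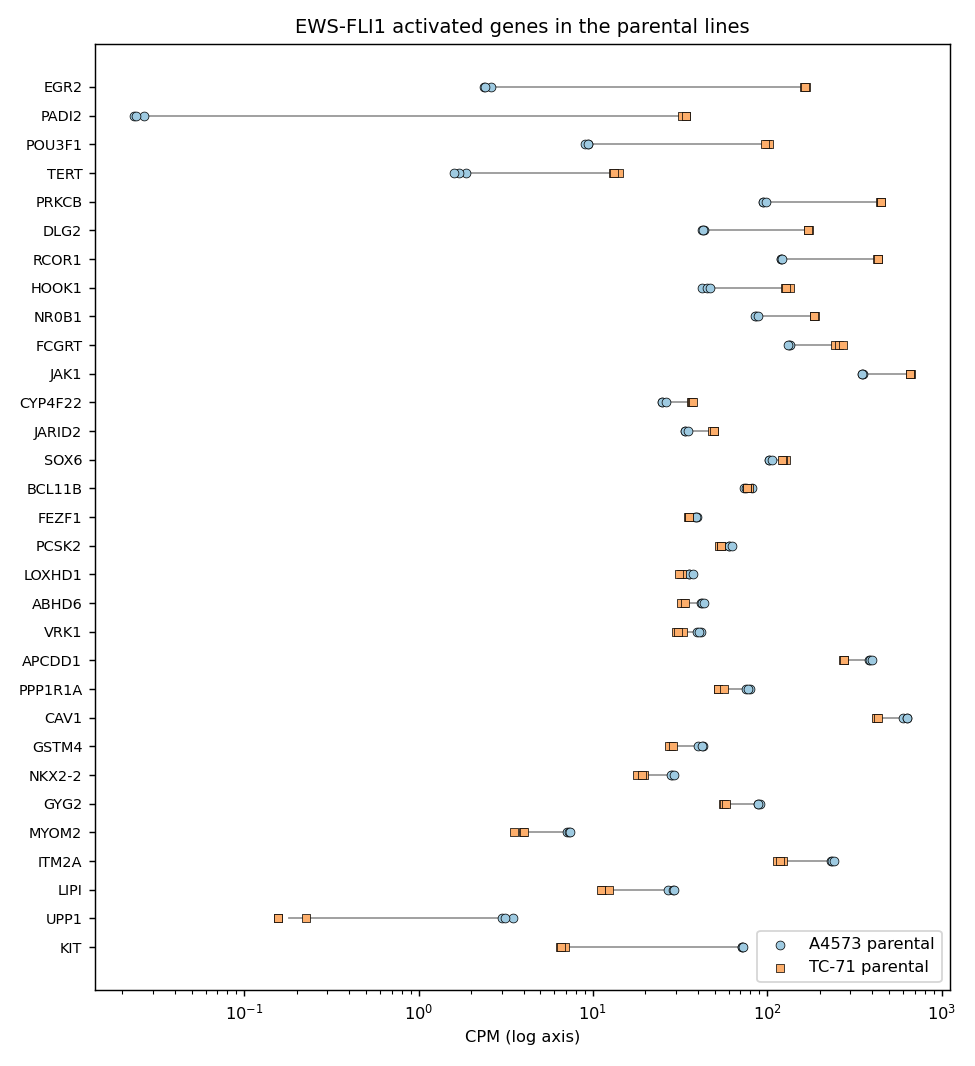
CPM (x axis, log scale) of the 31 tested members in the 3 A4573 parental and 3 TC-71 parental libraries, ordered by the log2 fold change between the lines; lines join the group means. EGR2, PADI2 and POU3F1 lie highest toward TC-71, BCL11B overlaps, and KIT and UPP1 lie toward A4573.

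For 5 members the order of the lines turned round between parents and derivatives, with no overlap in either pair, as for 13.7% of all tested genes. FEZF1, VRK1, LIPI, PCSK2 and ITM2A were each higher in A4573 parental than in TC-71 parental but higher in TC-71-R than in A4573-R. Levels can be compared between genes only per length, here as CPM per kilobase of exon in GENCODE 29. On that scale the median over the 32 members was 9.72 in A4573 parental, 10.6 in A4573-R, 10.8 in parental TC-71 and 13.9 in TC-71-R. The highest level was that of CAV1 in both parents (153 in A4573 and 105 in TC-71), of APCDD1 in A4573-R (91.1) and of JAK1 in TC-71-R (198). A mean of at least 10 CPM was reached by 25 members in each A4573 group, 28 in parental TC-71 and 27 in TC-71-R, while PADI2 and FATE1 in A4573 and UPP1 and FATE1 in TC-71 were under 1 CPM.

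The genes that make up the fusion were measured as whole genes, and these counts do not separate the fusion from unrearranged transcripts. EWSR1 fell from 242 to 205 CPM in A4573-R (-0.24, adjusted p = 8.5e-06) and rose from 187 to 206 in TC-71-R (0.14, adjusted p = 0.0011). FLI1 fell from 37.1 to 21.7 CPM (-0.75, adjusted p = 3.7e-10) and from 23.6 to 20.3 (-0.21, adjusted p = 0.00031). DHX9, which encodes RNA helicase A, fell from 564 to 438 CPM (-0.37, adjusted p = 2.1e-05) and rose from 208 to 291 (0.48, adjusted p = 8.2e-07). The part of these levels in the members' changes was not tested.

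A second list held 26 genes described as activated by EWS-FLI1, none of them members. Like the members, it was chosen with earlier results of these data known, so its shares are descriptive and were not tested. Changed genes made up 92% of its tested genes in each line, beside 72.5% of all genes in A4573-R and 78.5% in TC-71-R, and the difference between the lines exceeded 2-fold for 52%, beside 16.5%. Of its 25 tested genes, 7 rose, 16 fell and 2 did not pass in A4573-R (median -0.25), and 13 rose, 10 fell and 2 did not pass in TC-71-R (median 0.23). Its largest changes were those of GLI1, the Hedgehog effector, which rose from 13.6 to 72.9 CPM in A4573-R (2.34) and fell from 18.9 to 9.39 in TC-71-R (-0.94), and of AURKB, a mitotic kinase, which fell from 101 to 84.8 (-0.25) and rose from 8.83 to 32 (1.74). CCK, a neuropeptide, rose from 68.0 to 207 CPM in A4573-R (1.59) and was 0.280 CPM in parental TC-71 and 0.308 in TC-71-R. CALCB, another neuropeptide, fell from 11.8 to 3.34 CPM (-1.56) and from 9.14 to 6.59 (-0.42).

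Of 13 genes described as repressed by the fusion, 12 were tested, of which 3 rose, 7 fell and 2 did not pass in A4573-R, and 6 rose, 3 fell and 3 did not pass in TC-71-R. These changed shares were 83.3% and 75%, beside the same 72.5% and 78.5% of all genes. Past 2-fold were 6 of the 12 in A4573-R, all lower, or 50% beside 5.72% of all genes. In TC-71-R they were 4 of 12, 2 higher and 2 lower, or 33.3% beside 10.3%. The difference between the lines exceeded 2-fold for 9 of 12, or 75% beside 16.5%. The median of this list was -0.83 in A4573-R and 0.10 in TC-71-R. This list too was chosen with earlier results of these data known, so its shares are descriptive and were not tested. THBS1, a matrix glycoprotein, fell from 13.0 to 1.04 CPM in A4573-R (-2.78) and was 0.0428 CPM in parental TC-71 and 0.0716 in TC-71-R. ACTA2, smooth muscle actin, fell from 14.1 to 2.26 CPM in A4573-R (-2.21) and rose from 1.56 to 2.69 in TC-71-R (0.52). TNC, a matrix protein, rose from 13.6 to 26.6 CPM (0.93) and fell from 27.7 to 3.61 (-2.64), and IGFBP3, which binds insulin-like growth factors, rose from 25.0 to 34.0 (0.43) and from 0.567 to 7.56 (2.45).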

How the data were processed

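RNA was sequenced in 12 libraries, 3 in each of 4 groups. The submitters' processing notes name Trimmomatic, STAR 2.4, HTSeq, edgeR and GRCh38 as used by the authors. The deposited signal is CPM on library sizes that the authors scaled, with columns summing to 0.940 to 1.12 M, and 100% of values came out as whole reads. Each library held 5 entries with no gene name (30.6% to 42.0% of reads), and what these are is not stated. They were left out of the tests, but the column sums above include them. The 1932 entries sharing 253 symbols were summed. One model with 4 group means was fitted to log2(CPM + 1) over 14335 genes with limma 3.58.1 (R 4.3.3), with a trend on expression and Benjamini-Hochberg adjustment, and gave both resistance changes, their difference and the parental difference. Exact tests on 3 against 3 libraries cannot go below p = 0.1 and were not used. Intervals on pooled reads are exact 95% intervals. Alternatives were other pseudocounts, filters and scalings, edgeR 4.0.16 and DESeq2 1.42.0 on the reads, blocks and leaving out libraries. Positions and exon lengths come from GENCODE 29. The limma test of A4573-R against A4573 parental was also run on simulated counts, with far fewer changed genes than were called here. The other comparisons were not simulated. Values in every library are given for members past 2-fold in a resistant line and for NR0B1, NKX2-2 and PRKCB, and up to 4 genes per further list by the largest change; CAV1 was added after its values were seen. The members and lists were chosen with earlier results of these data known.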

Additional observations from a re-analysis of the deposited data

Results flagged for a closer look

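The change in TC-71-R differed from that in A4573-R, by limma's test of the difference with adjusted p under 0.05, for 25 of the 31 tested members, beside 78.1% of all tested genes. Values below are the TC-71-R change minus the A4573-R change in log2(CPM + 1).

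The change was more positive in TC-71-R for 16 members. It differed by 2.14 for LIPI, 1.91 for POU3F1, 1.72 for PADI2, 1.65 for VRK1, 1.42 for CYP4F22, 1.32 for ITM2A and 1.12 for JAK1. Smaller differences were those of FEZF1 (0.70), EGR2 (0.66), NR0B1 (0.60), PCSK2 (0.54), CAV1 (0.45), SOX6 (0.34), DLG2 (0.27), KIT (0.26) and JARID2 (0.17). PADI2 had 2 to 5 reads per A4573 library, and its difference did not pass with edgeR or DESeq2 (adjusted p = 0.24 in both).

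It was more negative in TC-71-R for 9 members. The difference was -1.61 for ABHD6, -0.95 for FCGRT, -0.92 for PPP1R1A, -0.90 for PRKCB, -0.76 for APCDD1 and -0.69 for GSTM4. It was -0.63 for MYOM2, -0.34 for TERT and -0.24 for NKX2-2.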

How the results depend on the processing

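Counts of changed members and of all changed genes stayed within 1.5 times their value under every alternative run. Leaving out 1 library at a time gave 23 to 25 changed members in A4573-R, 24 to 27 in TC-71-R, 25 to 27 for the difference and 30 for the parental lines. In the same order, all changed genes numbered 9807 to 10632, 10790 to 11410, 10884 to 11220 and 12631 to 12989. The edgeR test on the reads called 10527 genes and 26 members in A4573-R, 11410 and 28 in TC-71-R, 10836 and 28 for the difference and 12927 and 30 between the parental lines, beside 10389, 11248, 11197 and 12892 genes with limma. CPM over the reads of named genes gave 25 changed members in TC-71-R, 13 higher and 12 lower. Of all 15133 genes tested on that scale, 11783 changed, 5122 higher and 6661 lower. Of 2782 member values under 23 alternatives, 2682 kept direction and call, 33 lost the call and 42 gained it in the same direction. The sign changed for 25, of which 20 passed neither with the main settings nor under the alternative. The 5 that passed under the alternative were PRKCB in TC-71-R (-0.12) and BCL11B between the parental lines (0.14), both after quantile normalization, and the difference for UPP1 with a pseudocount of 0.25 (-0.32), with edgeR (-3.21) and with DESeq2 (-3.39); the cause was not tested. The difference for BCL11B passed over named-gene reads (-0.20) and without A4573-R replicate 3 (-0.17) or TC-71-R replicate 2 (-0.18). That for HOOK1 passed with median-of-ratios scaling (0.18), edgeR (0.20) and DESeq2 (0.18) and without A4573 parental replicate 1 (0.18), A4573-R replicate 1 (0.18) or TC-71-R replicate 2 (0.17). That for LOXHD1 passed with the same scaling (0.15), edgeR (0.17) and DESeq2 (0.15) and without A4573-R replicate 2 (0.14), and that for GYG2 with edgeR (0.11).

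The labels do not say whether a replicate number marks a shared culture or batch. Same-number correlations of deviations from the group means were -0.0653, 0.0130 and -0.0102 in A4573 and -0.0974, 0.0161 and -0.0891 in TC-71. Different-number correlations ran from -0.0459 to 0.0607 in A4573 and from -0.0576 to 0.157 in TC-71. With 3 libraries per group these values cannot decide whether the libraries are paired. A replicate block within each line gave 25 changed members in A4573-R, 24 in TC-71-R and 25 for the difference, and 10279, 11151 and 11088 changed genes. A replicate block over all lines, added after the data were seen, gave 24, 25, 25 and, for the parental lines, 30 members. All changed genes under that block were 10422, 11285, 11236 and 12915, in the same order. In TC-71-R the NKX2-2 call was lost under both blocks (adjusted p = 0.071 and 0.051) and the HOOK1 call within lines (adjusted p = 0.071), and in A4573-R the ABHD6 value passed within lines (adjusted p = 0.046). A block within each line cannot give the parental comparison, and the difference uses all 12 libraries, so no separate fit of its groups was run. Depth limits UPP1, PADI2 and FATE1, which had from 0 to 5, or up to 41, reads per library in some groups.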
